A study of Mus musculus with 2 samples.

Results

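The EGF receptor and 6 of the secreted growth factors that bind it were followed through the cells of mouse skin wounds. The receptor gene Egfr and the ligand genes Areg, Ereg, Hbegf, Tgfa, Btc and Epgn were taken by gene symbol, each matched 1 row of both count matrices, and together they made 7 of the 31053 genes listed. The data were 2 single-cell RNA-seq libraries, each made from the live, 7AAD-negative cells of back-skin wounds pooled from 3 male C57BL/6 mice aged 7 to 9 weeks and taken with a 10 mm punch on day 5 after wounding. Both libraries carry the genotype label Mrc1-DTR, a transgene in which the Mrc1 (CD206) promoter drives the diphtheria toxin receptor, and the treatment label was PBS for one and diphtheria toxin (DTX) for the other. The study's methods instead describe the controls as wild-type mice that also received the toxin, and its text attaches the larger of the barcode totals to the depleted mice whereas the file labelled PBS holds it. The names PBS library and DTX library are those of the labels. With 1 library per group there was no replicate of any difference, no test was made, and every interval is a 95% interval of counting error only.

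EGF family ligands are made as membrane-anchored precursors that proteases, above all ADAM17, cut from the cell surface. The released factor binds EGFR, a receptor tyrosine kinase, on the same or on neighbouring cells and activates ERK signalling. In skin the family is best known for driving keratinocyte proliferation and migration during re-epithelialization, and the keratinocyte is both a source of the ligands and a main carrier of the receptor. The diphtheria toxin receptor is itself the human form of HB-EGF. No row of the matrices is named HBEGF, and whether reads of the transgene were counted under mouse Hbegf was not tested.

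Of the ligand genes, 4 lie on mouse chromosome 5 (GRCm38). Epgn (epigen, ENSMUSG00000035020, chr5:91027464-91035215, plus strand), Ereg (epiregulin, ENSMUSG00000029377, chr5:91074622-91093646, plus strand) and Areg (amphiregulin, ENSMUSG00000029378, chr5:91139599-91148432, plus strand) follow each other with gaps of 39406 and 45952 bp and no annotated gene between them. Btc (betacellulin, ENSMUSG00000082361, chr5:91357261-91402994, minus strand) lies 208828 bp further on, past 2 annotated genes. Tgfa (transforming growth factor alpha, ENSMUSG00000029999) lies at chr6:86195223-86275719 and Egfr (ENSMUSG00000020122) at chr11:16752203-16918158, both on the plus strand.

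RefSeq promoter sequences (GRCm38.p6) were found for 5 of the 7 genes and are shown for 3 chromosome 5 neighbours with unlike patterns in the results that follow, Epgn in epithelial-like cells with a peak in the basal-like state, Areg also in immune classes, and Btc mainly in the infundibulum-like state. They end at the base before the annotated gene start and read 5′ to 3′ on the strand of the gene, with capitals marking the letters TGACGTCA (a cAMP response element) and TATAAA (a core promoter element). Epgn, chr5:91027267-91027463, plus strand:
Epgn: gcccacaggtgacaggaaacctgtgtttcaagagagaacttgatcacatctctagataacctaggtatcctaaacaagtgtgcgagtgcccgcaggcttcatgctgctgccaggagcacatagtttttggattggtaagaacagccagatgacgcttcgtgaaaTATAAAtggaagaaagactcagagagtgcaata
Areg, chr5:91139349-91139598, plus strand:
Areg: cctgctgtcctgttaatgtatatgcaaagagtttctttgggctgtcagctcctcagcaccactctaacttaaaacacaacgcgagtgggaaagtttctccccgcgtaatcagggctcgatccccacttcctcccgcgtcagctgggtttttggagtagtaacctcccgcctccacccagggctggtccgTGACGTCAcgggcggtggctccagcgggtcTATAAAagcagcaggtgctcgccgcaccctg
Btc, chr5:91402995-91403244, minus strand:
Btc: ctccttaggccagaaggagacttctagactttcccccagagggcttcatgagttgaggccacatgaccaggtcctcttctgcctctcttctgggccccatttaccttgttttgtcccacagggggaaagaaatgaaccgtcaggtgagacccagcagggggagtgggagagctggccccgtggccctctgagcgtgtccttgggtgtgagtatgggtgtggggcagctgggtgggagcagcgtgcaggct
In the 250 bases before the RefSeq start, searched on both strands, TGACGTCA was found only in the Areg window among these 5 genes, at -61 to -54. The same letters stood in 1.55% of 32851 mouse promoter windows of that length. TATAAA stood at -31 to -26 of Areg and at -86 to -81 of Epgn, whose GENCODE start lies 53 bases before the RefSeq start, and in 12.4% of all windows. The letters TGANTCA (an AP-1 site), where N is any base, present in 6.75% of all windows, were in none of the 5, and the Btc, Tgfa and Egfr windows held none of the 3 motifs. These are matches of letters and not sites.

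After removal of cells with fewer than 500 detected genes or more than 6% mitochondrial UMIs, and of suspected doublets, 7944 cells with 81235634 UMIs (median 9579.5 per cell) remained in the PBS library and 6613 cells with 54872675 UMIs (median 7286) in the DTX library. Only 37 cell barcodes were shared between the libraries. Classes were named from marker genes. Macrophage-like cells made up 21.2% of the PBS and 66.9% of the DTX library, fibroblast-like cells 38.6% and 9.92%, and epithelial-like cells 26.0% and 3.55%. Mrc1, whose promoter drives the toxin receptor, stood at 496 CPM (UMIs of a gene per 1000000 UMIs of the class) in macrophage-like cells of the PBS library and 429 CPM in those of the DTX library. Levels are UMIs summed over the cells of a class and scaled in this way, and they compare 1 gene between groups of cells and not one gene with another.

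Hbegf, Tgfa, Epgn, Btc and Areg were all abundant in or largely restricted to epithelial-like cells, here keratinocytes, but the ligands differed in how far they reached into other classes (plot of the 7 genes by class). Epgn and Tgfa were the most restricted, and Btc was less so, with a lower level in fibroblast-like cells. Epgn stood at 279 CPM (273 to 285) in epithelial-like cells of the PBS library and 231 CPM (216 to 246) in those of the DTX library, and these cells held 98.2% and 97.2% of all its UMIs. In macrophage-like cells it stood at 3.53 and 0.558 CPM. Cells were then thinned to 2000 UMIs, and cells with fewer were left out. Of the thinned cells, 25.7% of PBS and 18.3% of DTX epithelial-like cells held an Epgn UMI, against 0.887% and 0.117% of macrophage-like cells. Unthinned, the shares of the PBS library were 48.1% and 1.72%, in cells with a median of 12597 and 4689 UMIs.

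Tgfa was highest in epithelial-like cells too, at 229.6 CPM (224 to 235) in the PBS and 319 CPM (302 to 338) in the DTX library. It had a second, lower level in endothelial-like cells, at 24.8 CPM (16.2 to 36.3) and 38.4 CPM (25.9 to 54.9), and in the NK or T-like class, at 11.1 and 19.8 CPM. The intervals of these latter classes overlapped in both libraries. Endothelial-like cells held 26 UMIs against 4.04 expected in the PBS library, and 30 UMIs against 0.770 expected in the DTX library, where the expected value is what keratinocyte, fibroblast and macrophage RNA carried over into those cells would bring, judged from 3 lists of marker genes. For the NK or T-like class the same counts were 18 UMIs against 6.21 expected and 28 UMIs against 1.70 expected. The Tgfa UMIs of both classes were therefore above that estimate in both libraries. Macrophage-like cells of the PBS library held 31 UMIs against 31.3 expected, which are equal within counting error.

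Btc was the sparsest member. Its level was 8.20 CPM (7.18 to 9.32) in PBS epithelial-like cells, from 234 UMIs, and 11.8 CPM (8.67 to 15.8) in DTX epithelial-like cells, from 46 UMIs. Fibroblast-like cells stood at 1.49 and 1.13 CPM and held 17.8% and 18.6% of all Btc UMIs. Their counts were 52 UMIs against 3.45 expected from carry-over in the PBS and 11 UMIs against 0.433 expected in the DTX library, above that estimate in both. Only 1.77% and 2.62% of thinned epithelial-like cells held a UMI, against 0.0682% and 0.0234% of macrophage-like cells (7.25% of PBS epithelial-like cells unthinned).

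Hbegf (heparin-binding EGF-like growth factor, ENSMUSG00000024486, chr18:36504927-36515805, minus strand), whose product binds heparan sulphate, was present in most classes. Epithelial-like cells led at 794 CPM (784 to 805) in the PBS and 796 CPM (769 to 825) in the DTX library, 2 values that could not be told apart. Endothelial-like cells followed at 529 CPM (486 to 575) and 288 CPM (252 to 329), then pericyte-like cells at 141 and 133 CPM, macrophage-like cells at 81.3 and 100.2 CPM, and fibroblast-like cells at 64.5 and 62.9 CPM. Among classes of at least 50 cells in each library this order was the same in both libraries, and each neighbouring pair down to macrophage-like and fibroblast-like cells had separate intervals. Dendritic-like cells stood at 29.0 and 23.1 CPM. Thinned, 59.4% and 62.0% of epithelial-like cells held a UMI, against 5.40% and 4.19% of dendritic-like cells (90.8% and 11.4% unthinned in the PBS library with 12597 and 8412 UMIs per median cell).

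Areg was the member with the widest immune expression. Its highest level was not in keratinocytes but in the NK or T-like class, at 895 CPM (849.7 to 942) in the PBS and 836 CPM (789 to 885) in the DTX library. Dendritic-like cells came next at 487 CPM (466 to 508) and 445 CPM (427 to 463), ahead of epithelial-like cells at 405 CPM (398 to 413) and 316 CPM (298 to 334) and of macrophage-like cells at 175 CPM (166 to 184) and 169 CPM (165 to 174). The intervals of these neighbours were separate in both libraries. Mast-like cells, of which there were 34 and 19, stood at 830.3 and 518 CPM. Endothelial-like cells were lowest among the classes of at least 50 cells, at 6.68 and 2.56 CPM.

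Within the NK or T-like class, a small cluster was led by Cd3g, Trdc, Cd3e, Nkg7, Cd7, Il2rb, Ctsw, Cd3d, Tcrg-C1 and Trbc1. Among these are genes of the T cell receptor complex, of the gamma delta chains and of a beta chain. This small cluster held much of the Areg. Its 41 PBS cells stood at 3920.2 CPM (3660.3 to 4194) and its 29 DTX cells at 3342 CPM (3089 to 3610.1), and 68.4% and 69.0% of its cells held an Areg UMI after thinning. The larger cluster, called NK-like from Gzma, Gzmb and Nkg7 but with all 8 T cell markers raised beside 7 of 8 NK cell markers, stood at 434 and 442 CPM. The levels of the small cluster rest on few cells, since 69.2% and 84.6% of its Areg UMIs lay in 10 cells. Of the 2 dendritic-like clusters, the one led by Ccr7, Ccl22, Mgl2, Ccl17 and Cd209a had 624 and 535 CPM. The other had 161 and 122 CPM. Ccr7 and Ccl22 are genes of migratory dendritic cells, but the higher level belongs to all 755 cells of the first cluster. In that cluster 7 of 10 dendritic markers were raised, but also 9 of 10 macrophage markers. At resolution 0.5 only 144 cells formed a cluster led by Ccl22 and Ccr7. A further 1534 cells, 1010 of them DTX, then took the dendritic name with 4 of 10 dendritic and 10 of 10 macrophage markers raised. The boundary between dendritic-like and macrophage-like cells was therefore not firm, and the Areg order of these classes rests on it. Thinned shares for the whole classes of the PBS library were 36.1% of NK or T-like, 31.7% of dendritic-like and 32.9% of epithelial-like cells, against 2.86% of endothelial-like cells (65.0% and 6.85% unthinned for the last 2).

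Ereg was shared between keratinocytes and fibroblasts and nearly absent from immune cells. Epithelial-like cells stood at 47.4 CPM (44.9 to 49.9) and 34.5 CPM (28.9 to 40.9), and fibroblast-like cells at 29.0 CPM (27.2 to 30.8) and 67.3 CPM (62.2 to 72.7). Epithelial-like cells were thus above fibroblast-like cells in the PBS library and below them in the DTX library, with separate intervals in both. As a mean over cells, which weights shallow and deep cells equally, epithelial-like cells led in the DTX library too. Macrophage-like cells stood at 0.730 and 1.05 CPM, and no Ereg UMI was seen in the NK or T-like class of either library, where 3 UMIs, the one-sided 95% limit of a count of 0, would be 1.84 and 2.12 CPM. The thinned shares of epithelial-like cells were 4.67% and 6.55%, and those of macrophage-like cells 0.0682% and 0.140% (12.7% and 0.356% unthinned in the PBS library).

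Egfr, the receptor, was highest in fibroblast-like and epithelial-like cells. The levels were 159 CPM (155 to 163) and 146 CPM (139 to 154) in fibroblast-like cells and 147 CPM (143 to 152) and 149.6 CPM (138 to 162) in epithelial-like cells. The 2 classes had separate intervals in the PBS library, by a small margin, and overlapping ones in the DTX library. Pericyte-like cells came after them at 47.8 and 28.0 CPM, where 41 UMIs against 37.7 expected from carry-over were counted in the PBS and 47 UMIs against 68.1 expected in the DTX library. The fibroblast list gave 36.9 and 66.2 of these expected UMIs, and it stood at 25945 and 18922 CPM in pericyte-like cells. Whether those cells make these RNAs themselves was not tested, so own and carried-over Egfr cannot be told apart there. Macrophage-like cells stood at 4.26 and 0.689 CPM. Thinned, 24.1% of PBS fibroblast-like and 22.5% of PBS epithelial-like cells held an Egfr UMI, against 0.887% of macrophage-like cells (68.6%, 70.7% and 2.02% unthinned, where the median fibroblast-like cell had 11176 UMIs).

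**Figure D1:**
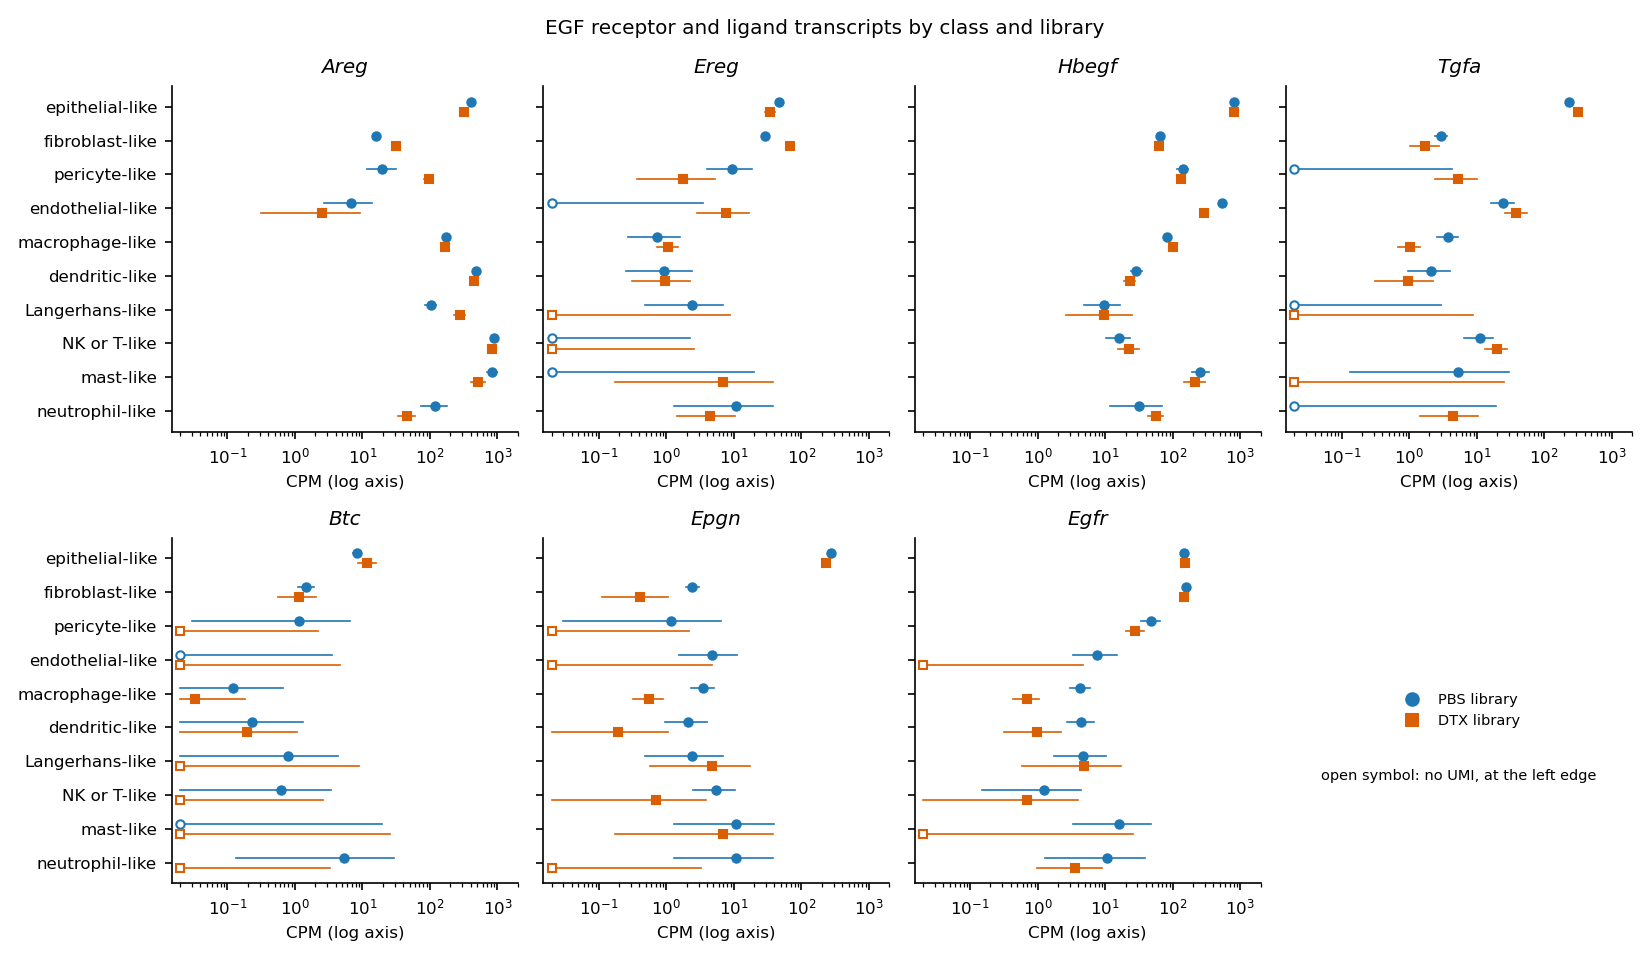
Level of each of the 7 genes (horizontal log axis, CPM) in 10 cell classes, with PBS as blue circles, DTX as orange squares, lines for the 95% Poisson intervals and open symbols where no UMI was seen. Epgn and Tgfa peak in epithelial-like cells, Areg in the NK or T-like class (895 CPM in the PBS library), and Egfr in fibroblast-like and epithelial-like cells.

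The class sizes differed between the libraries, and for Areg, Hbegf and Ereg so did the cells that held the RNA. All shares here are of the UMIs in kept cells. The filters left 1365 of 3367 Tgfa and 7453 of 13740 Hbegf UMIs of the DTX file, against 6740 of 9771 and 26487 of 35017 of the PBS file. Epithelial-like cells carried 66.3% of the Areg UMIs in the PBS library and 11.6% in the DTX library, whereas macrophage-like cells carried 8.23% and 48.7%. The Areg level of macrophage-like cells was 175 and 169 CPM. Macrophage-like shares rest on the boundary with dendritic-like cells, which was not firm. For Hbegf the epithelial-like share was 85.6% and 41.5%, and the macrophage-like share of the DTX library was 40.9%. Ereg UMIs lay to 56.6% and 15.9% in epithelial-like and to 42.5% and 77.8% in fibroblast-like cells. Tgfa and Btc lay mostly in the epithelial-like cells of both libraries, at 97.2% and 90.8% for Tgfa and 80.1% and 78.0% for Btc, although epithelial-like cells were only 7.08% of all UMIs of the DTX library. Egfr UMIs lay mostly in fibroblast-like cells, at 56.3% and 68.2%.

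The ligands were divided among keratinocyte states (plot of the 7 genes by keratinocyte cluster). Epithelial-like cells were clustered again without the 7 genes and the pathway genes below. They gave 5 clusters with a named state, and 3 that stay unnamed, of which clusters 6 and 7 were led by fibroblast genes (Dcn, Col1a1) and by myeloid genes (Lyz2, Cd74). Levels below are those of the PBS library, whose states were large enough, with 699 spinous-like, 426 infundibulum-like, 439 basal-like, 85 granular-like and 71 cycling cells. In the DTX library only the spinous-like (59 cells) and infundibulum-like (58 cells) states passed 50 cells. The spinous-like name was not firm. When the PBS cells were clustered alone, a cluster of 696 cells led by Krt1 and Hpgds was named wound-activated instead. Sprr1b, Krt6b and Krt16, markers of that state, were among its leading genes beside Krt10.

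Epgn and Areg were highest in basal-like cells, a cluster apart from the cycling one. It was led by Igfbp3, Itga2, Col17a1 and Mmp13, and 4 of 8 basal markers were raised in it. Epgn stood at 697 CPM (675 to 719.8) there, followed by granular-like cells at 307, cluster 6 at 278, cycling cells at 241 and spinous-like cells at 221 CPM, each overlapping the next in its interval, then cluster 3 at 133 and infundibulum-like cells at 47.3 CPM. It was one of the genes that led the basal-like cluster, although it had not been used to form it. Areg stood at 675 CPM (654 to 698) in basal-like and 435 CPM (423 to 447) in spinous-like cells, while cycling, granular-like and infundibulum-like cells, at 322, 298 and 282 CPM, had overlapping intervals. Egfr was highest in the same basal-like cells, at 195 CPM (183 to 207), then in spinous-like cells at 166 CPM (159 to 174), and lowest in granular-like cells at 83.6 CPM (68.6 to 101).

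Hbegf was highest in the spinous-like and granular-like cells of the PBS library. Spinous-like cells, led by Krt1 and Krt10, stood at 1059.5 CPM (1041 to 1079) and granular-like cells, led by Lor and Flg, at 1016 CPM (962 to 1072), with overlapping intervals, and basal-like cells at 614 CPM (594 to 636). The few DTX cells of these states had another order, with 1213 CPM (1076 to 1362) in 16 basal-like, 1211 CPM (1147 to 1277) in 59 spinous-like and 831 CPM (748 to 920.4) in 27 granular-like cells. Ereg was concentrated in granular-like cells, at 524 CPM (485 to 564) against 54.2 CPM in infundibulum-like, 19.8 in spinous-like and 12.3 in basal-like cells. That peak rests on few cells, as 64.9% of its 683 UMIs lay in 10 cells and 122 in a single one. The 27 granular-like cells of the DTX library stood at 92.6 CPM (66.4 to 126).

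Tgfa and Btc were highest in the infundibulum-like state, cells of the upper hair follicle led by Cst6, Defb6 and Krt79. Tgfa stood at 353 CPM (336 to 369.7) there, at 297 CPM (268 to 328) in granular-like cells and between 114 and 223 CPM in the other clusters with over 50 cells. Btc stood at 35.5 CPM (30.4 to 41.1), and 176 of its 234 PBS epithelial-like UMIs lay in that state, against 7.67 CPM in granular-like and 0.366 in basal-like cells. The DTX library gave 33.4 CPM of Btc in infundibulum-like and 3.61 in spinous-like cells, the same order with separate intervals. Tgfa stood at 374 CPM (334 to 417) and 353 CPM (319 to 390) in those DTX states, with overlapping intervals. In the PBS library Epgn and Btc had exchanged ends, as Epgn was highest in basal-like and lowest in infundibulum-like cells and Btc the reverse. The clusters in between had the same order for both genes, but that of Btc was not resolved. Their Btc levels rested on 4 to 26 UMIs, and each overlapped the next in its interval. In the DTX library Epgn stood at 27.6 CPM in infundibulum-like and 242 in spinous-like cells, the reverse of the Btc order in those states.

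**Figure D2:**
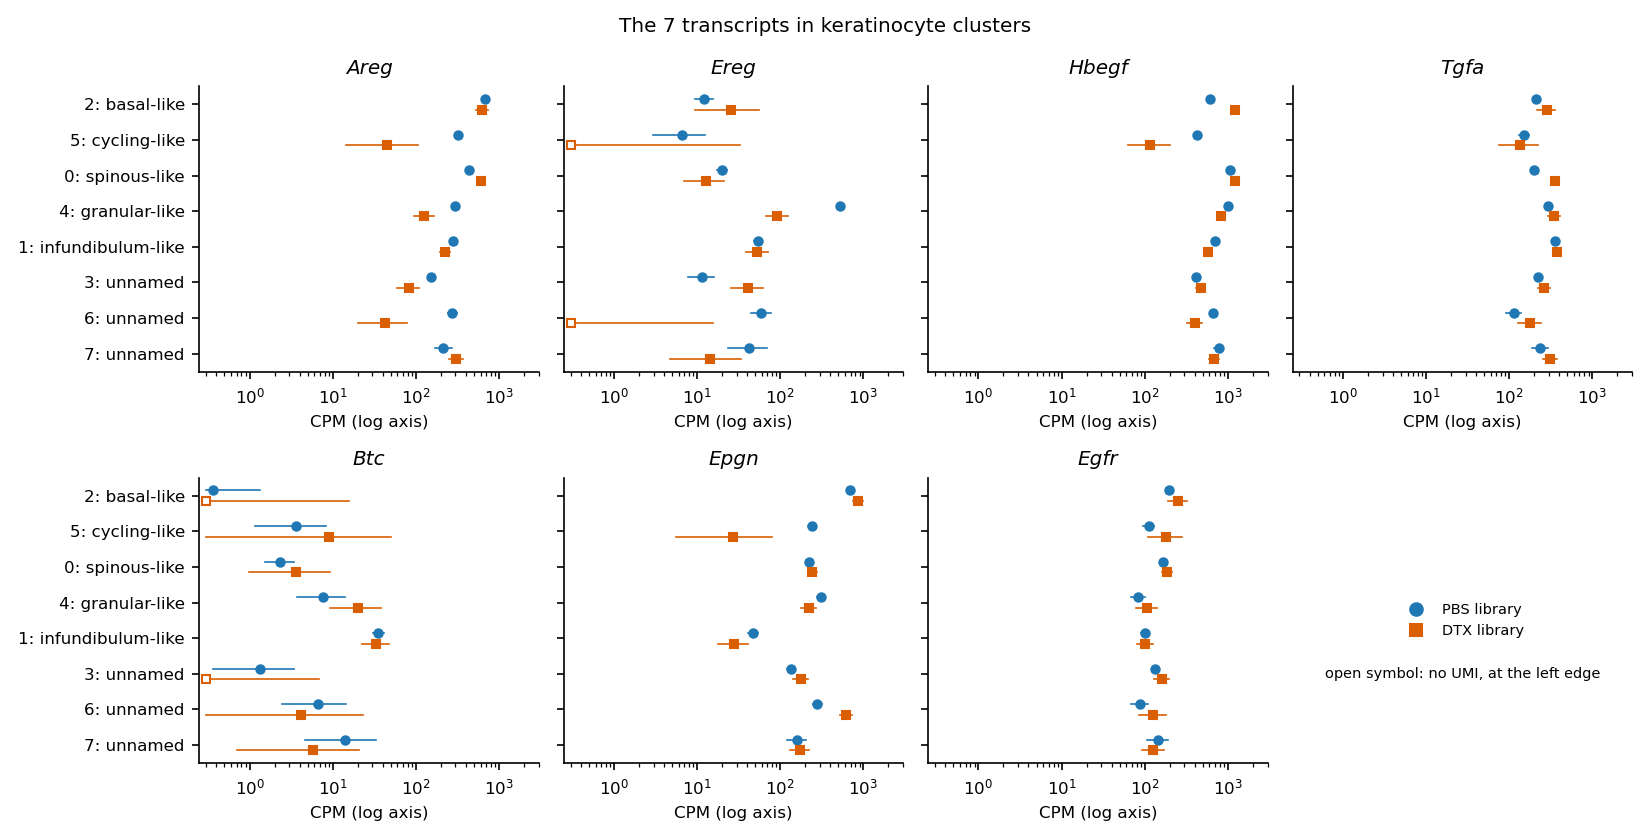
Level of the 7 genes (CPM) in the keratinocyte clusters, with PBS as blue circles, DTX as orange squares and lines for the 95% Poisson intervals. In the PBS library Epgn, Areg and Egfr peak in the basal-like cluster (697, 675 and 195 CPM), Ereg in the granular-like and Btc and Tgfa in the infundibulum-like cluster.

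Ligand and receptor RNA met in the same keratinocyte about as often as their single shares would give. Of 2035 PBS epithelial-like cells thinned to 2000 UMIs, 84.3% held a UMI of at least 1 ligand, 24.3% an Egfr UMI and 20.7% (18.9 to 22.5) both, where the product of the single shares is 20.5%. In the DTX library the shares were 85.2%, 22.3% and 21.0% (15.9 to 26.8), with a product of 19.0%. The product lay inside the interval of the observed share in both libraries. Granular-like cells stood apart within the PBS library, since 97.6% of them held a ligand UMI but 8.33% an Egfr UMI, against 84.9% and 29.6% of basal-like cells. In PBS fibroblast-like cells the receptor was as frequent, at 25.1%, but a ligand was found in 14.0% and both in 3.29%. The cells were thinned anew at random for these shares, so the Egfr shares differ slightly from those given above.

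Between the libraries, 6 of the 29 member and class pairs with at least 50 UMIs lay past 2-fold (plot of the ratios). These were Ereg in fibroblast-like and Areg in pericyte-like cells, both higher in the DTX library, and Epgn in fibroblast-like, Egfr and Tgfa in macrophage-like and Areg in neutrophil-like cells, all lower. The epithelial-like class as a whole had none. Under an upper limit of 2000 genes per cell, which leaves fewer cells and UMIs, 1 of 5 tested pairs was past 2-fold. The share of all genes past 2-fold by the same rule stands beside each class, and 1 or 2 members against such a share say little about the members as a group.

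In epithelial-like cells none of the 7 members was past 2-fold, against 3.89% of 10305 genes higher and 3.48% lower in the DTX library. The largest log2 ratios of DTX over PBS were 0.53 (0.042 to 0.99) for Btc, 0.48 (0.39 to 0.56) for Tgfa and -0.46 (-0.72 to -0.20) for Ereg. Areg was at -0.36 (-0.45 to -0.28) and Epgn at -0.27 (-0.38 to -0.17), while Hbegf at 0.0035 (-0.051 to 0.058) and Egfr at 0.022 (-0.11 to 0.15) lay at 0 within counting error. Without the 10 cells of each library that held the most UMIs of the gene, Ereg stood at -1.40 and Epgn at -1.09, both past 2-fold. This trim was unequal, since 10 cells are a larger part of the 235 DTX than of the 2069 PBS epithelial-like cells, and it lowers the DTX level more. The epithelial-like median of the 7 was 0.0035, beside 0.08 over all genes tested. The states of these cells were not in the same proportions in the libraries, and within a state the values differed: Areg was at 0.47 (0.35 to 0.59) in spinous-like and -0.34 (-0.56 to -0.12) in infundibulum-like cells, and Tgfa at 0.83 (0.68 to 0.99) and 0.084 (-0.091 to 0.26). Areg was therefore lower in the class as a whole and higher in its spinous-like cells, and only 16 basal-like DTX cells were present against 439 in the PBS library. Some smaller groups within the class passed 2-fold, in both directions. Ereg was at -2.50 (-2.99 to -2.04) and Areg at -1.24 (-1.67 to -0.83) in granular-like cells. In cluster 3 Ereg was at 1.86 (1.01 to 2.67). In cluster 6 Epgn was at 1.17 (0.86 to 1.47) but Areg at -2.70 (-3.78 to -1.80), and Ereg had 53 PBS and 0 DTX UMIs. Cycling cells had Areg at -2.84 (-4.47 to -1.61), Epgn at -3.16 (-5.44 to -1.60) and Hbegf at -1.87 (-2.79 to -1.08). Ereg in the 16 basal-like DTX cells was at 1.06 (-0.43 to 2.26). Before these cells were clustered again, an epithelial-like cluster led by Cst6 and Krt79 (868 PBS and 149 DTX cells) had Ereg at -1.07 (-1.36 to -0.79).

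Fibroblast-like cells had 1 member past 2-fold in each direction among 7 tested, against 3.82% of 11813 genes higher and 2.38% lower. Ereg stood at 29.0 and 67.3 CPM in the PBS and DTX libraries, a log2 ratio of 1.22 (1.07 to 1.36) from 1014 and 654 UMIs. Without the 10 cells of each library that held the most Ereg, out of 3065 PBS and 656 DTX cells, the log2 ratio was 0.95, short of 2-fold. That trim too takes a larger part of the DTX cells. Areg was at 0.99 (0.79 to 1.19), just inside the limit, and at 1.18 as a mean over cells. Epgn was at -2.56 (-4.47 to -1.15) from 85 and 4 UMIs, and Tgfa at -0.78 (-1.61 to -0.03). Of these keratinocyte ligands, 85 UMIs against 115 expected from carry-over were counted for Epgn in the PBS library, and 105 UMIs against 97.7 expected for Tgfa. The summed level of 9 keratinocyte marker genes in fibroblast-like cells was 379 CPM in the PBS and 133 CPM in the DTX library. Hbegf, Btc and Egfr were at -0.038, -0.39 and -0.12, and the median of the 7 was -0.12, beside 0.13 over all genes.

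Fibroblast clusters differed in Ereg within each library (plot of fibroblast and macrophage clusters). The Plac8-like cluster, 845 PBS and 295 DTX cells, stood at 58.9 CPM (54.8 to 63.4) and 91.3 CPM (83.3 to 99.9), a log2 ratio of 0.63 (0.46 to 0.80). Cluster 1, led by Igfbp2 and Grem1, stood at 16.0 and 42.0 CPM, at 1.39 (0.92 to 1.84), and cluster 3, led by Coch and Fmod, at 23.5 and 36.5 CPM, at 0.63 (0.085 to 1.17). The leading genes of cluster 3 also included the immediate early and heat shock genes Atf3, Fos, Nr4a1, Nr4a2 and Hspa1a. Cluster 2, led by Ctla2a and Gpx3, had almost no Ereg, at 0.475 and 1.25 CPM. Ereg was thus higher in the DTX library within each of these 3 larger clusters that held it, and the Plac8-like cluster, which had the most, was also a larger part of the DTX fibroblasts.

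Egfr was distributed otherwise among the same clusters. It was highest in cluster 2, at 252 CPM (241 to 262) and 217 CPM (186 to 252), and the Plac8-like cluster stood at 124 and 169 CPM, cluster 1 at 148 and 118 and cluster 3 at 92.3 and 71.5 CPM. Hbegf differed in opposite directions in 2 of the clusters. It stood at 80.3 CPM in the PBS and 44.0 CPM in the DTX library in the Plac8-like cluster, at -0.87 (-1.08 to -0.66), and at 52.5 and 126 CPM in cluster 3, at 1.27 (0.95 to 1.58), while the class value was -0.038. Areg was highest among the larger clusters in the Plac8-like one, at 32.2 and 38.7 CPM, a log2 ratio of 0.27 (0.014 to 0.51). Cluster 4, 46 PBS and 45 DTX cells led by the myeloid genes Cd74 and Lyz2, held 29 of the 85 PBS Epgn UMIs and 19 of the 105 PBS Tgfa UMIs of the class.

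**Figure D3:**
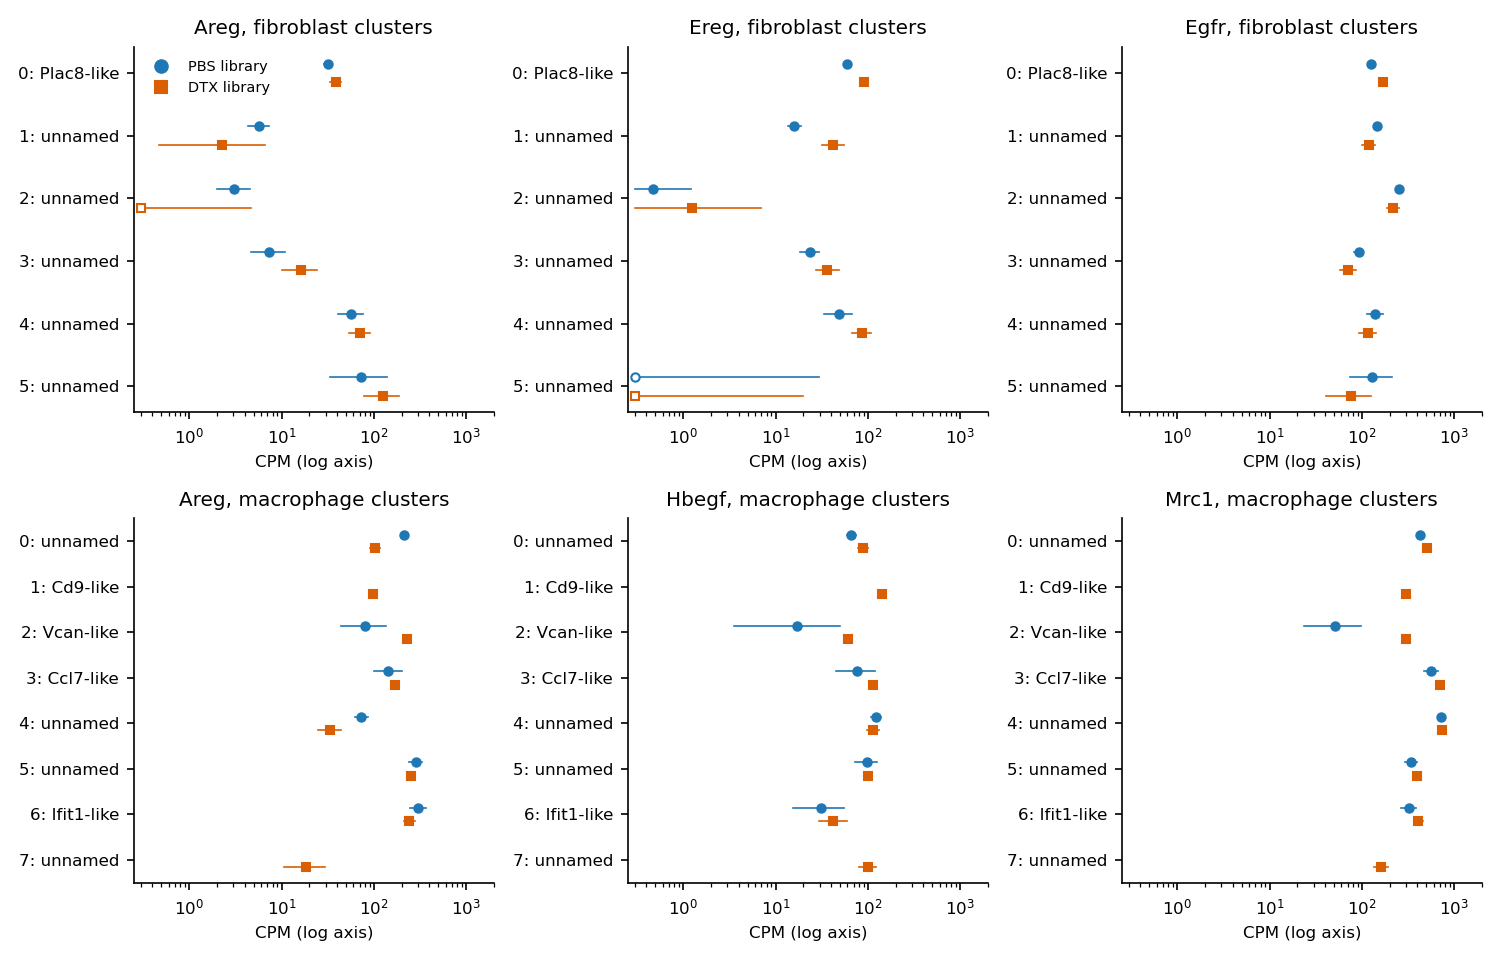
Top, Areg, Ereg and Egfr in the 6 fibroblast clusters, and bottom, Areg, Hbegf and Mrc1 in the 8 macrophage clusters (CPM, groups of at least 20 cells), with PBS as blue circles, DTX as orange squares and lines for the 95% Poisson intervals. Ereg is highest in the Plac8-like cluster and Egfr in cluster 2, at 252 CPM in the PBS library.

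Macrophage-like cells had 2 of 4 tested members past 2-fold, both lower in the DTX library, against 2.67% of 10154 genes higher and 4.56% lower. Egfr was at -2.63 (-3.48 to -1.81), from 35 PBS and 21 DTX UMIs, and Tgfa at -1.89 (-2.66 to -1.12), from 31 and 31 UMIs. Both rest on few UMIs. The PBS library held 35 UMIs against 32.5 expected for Egfr, the DTX library 21 UMIs against 59.8 expected for Egfr and 31 UMIs against 102 expected for Tgfa, and the keratinocyte marker genes stood at 581 and 397 CPM in these cells. The well-counted ligands differed little, with Areg at -0.043 (-0.13 to 0.043) and Hbegf at 0.30 (0.18 to 0.42). The median of the 4 was -0.97, beside 0.07 over all genes.

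The Areg value of the macrophage class joined clusters that were not the same in both libraries. In the PBS library most macrophage-like cells were in cluster 0 (832 cells, led by the MHC class II genes H2-Eb1 and H2-Aa) and cluster 4 (611 cells, led by Ccl8 and Hspa1a), and in the DTX library most were in the Cd9-like, Vcan-like and Ccl7-like clusters and cluster 5, with 1027, 1004, 893 and 635 cells. Within cluster 0 Areg stood at 209.9 CPM (197 to 224) in the PBS and 104 CPM (91.7 to 117) in the DTX library, a log2 ratio of -1.02 (-1.22 to -0.82), and within cluster 4 at 73.4 and 33.5 CPM, at -1.13 (-1.61 to -0.68). Cluster 5, led by Il1r2, stood at 282 and 255 CPM, at -0.15 (-0.39 to 0.10). The Vcan-like cluster of the DTX library, monocyte-like by its genes Vcan, Plac8 and Hp, stood at 231 CPM (219.9 to 242) and the Cd9-like cluster, led by Arg1 and Spp1, at 96.7 CPM (89.2 to 105). The 30 PBS cells of the Vcan-like cluster stood at 80.0 CPM from 14 UMIs, a log2 ratio of 1.53 (0.78 to 2.40). The Ccl7-like DTX cells stood at 171 CPM, close to the value of the class, and the 73 DTX cells of cluster 7 at 18.4 CPM. The near-equal class values thus stood beside lower DTX levels within both large PBS clusters and a higher one within the Vcan-like cluster. The clusters that were mostly DTX cells lay on either side of the class value.

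Hbegf had another distribution over the macrophage clusters. In the DTX library it was highest in the Cd9-like cluster, at 142 CPM (133 to 152), and lowest among the larger clusters in the Vcan-like one, at 61.3 CPM (55.8 to 67.2). In the PBS library it was highest in cluster 4, at 123 CPM (109 to 138), against 66.3 CPM in cluster 0. Mrc1, the gene whose promoter drives the toxin receptor, was also highest in cluster 4, at 712 and 739 CPM, with the Ccl7-like DTX cells next at 706 CPM, and it stood at 302 CPM in the Cd9-like DTX cells. Hbegf in the DTX cells of cluster 4 and of the Ccl7-like cluster was 113 and 115 CPM, next after the Cd9-like cluster.

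Of the remaining classes, neutrophil-like and pericyte-like cells each had 1 member past 2-fold, and it was Areg in both. In neutrophil-like cells Areg stood at 117 CPM (73.3 to 177) in the PBS and 45.2 CPM (33.7 to 59.4) in the DTX library, a log2 ratio of -1.37 (-2.12 to -0.58) from 22 and 51 UMIs, against 6.11% of 2817 genes higher and 4.76% lower. Without the 10 cells of each library with the most Areg the sign turned, at 0.66, but these were taken from 128 PBS and 458 DTX cells and so weigh more on the PBS level. The counts were 22 UMIs against 14.8 expected from carry-over in the PBS library, where the estimate lay inside the interval of the count, and 51 UMIs against 81.5 expected in the DTX library. Without Apoe in the list the estimates were 11.4, just under that interval, and 88.2. In pericyte-like cells it stood at 19.8 CPM (11.6 to 31.7) and 96.4 CPM (82.1 to 112), at 2.28 (1.56 to 3.10), against 2.22% of 5590 genes higher and 1.86% lower. Of the 162 DTX UMIs 94.4% lay in 10 of 112 cells. Without the top 10 cells of each library, out of 59 PBS and 112 DTX cells, the log2 ratio was 0.47. Set against the carry-over estimate there were 17 UMIs against 10.6 expected in the PBS and 162 UMIs against 32.5 expected in the DTX library.

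No member was past 2-fold in the other 3 classes. Endothelial-like cells had Hbegf at -0.88 (-1.11 to -0.65) and Tgfa at 0.63 (-0.17 to 1.45), against 2.08% of 5010 genes higher and 2.81% lower. Dendritic-like cells had Areg at -0.13 (-0.22 to -0.044) and Hbegf at -0.33 (-0.70 to 0.044), against 1.22% of 8013 genes higher and 1.8% lower. The NK or T-like class had Areg at -0.10 (-0.21 to 0.013) and Hbegf at 0.50 (-0.29 to 1.31), against 1.29% of 6348 genes higher and 1.34% lower. Langerhans-like cells, of which the DTX library held 37, stood at 102 and 278 CPM of Areg, and 91 of the 116 DTX UMIs came from 1 cell.

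**Figure D4:**
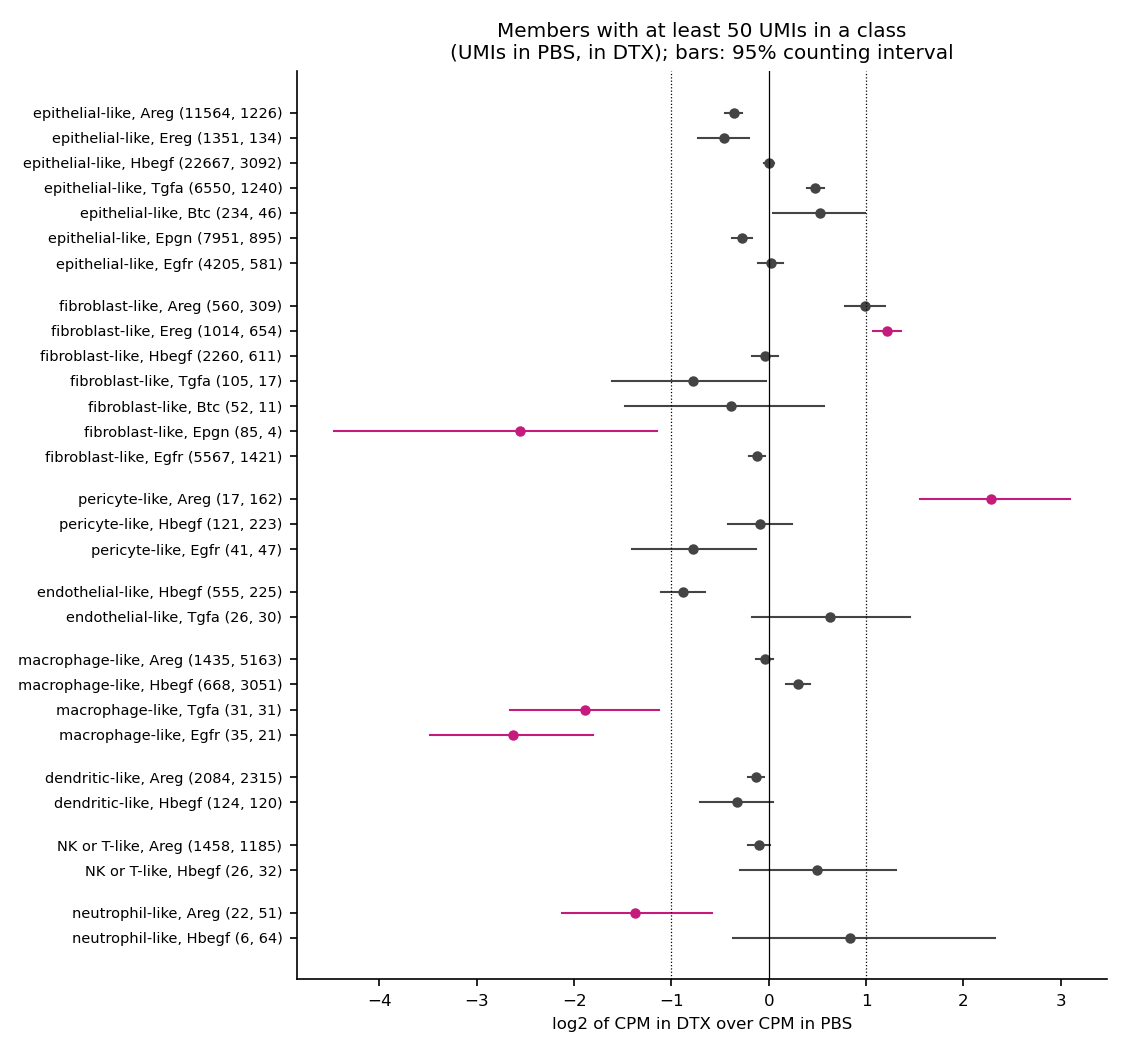
Log2 ratio of DTX over PBS for each gene and class with at least 50 UMIs, with lines for the 95% exact binomial intervals of counting error and magenta for values past 2-fold. All 7 epithelial-like values lie inside 2-fold, and Ereg in fibroblast-like cells at 1.22 is the value past it with the most UMIs.

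The UMIs of each member in every class were set against those that carried-over RNA of keratinocytes, fibroblasts and macrophages would bring (plot of observed against carried-over UMIs). The estimate for a class left out its own list. High levels of the source classes were therefore counted too, such as 22667 Hbegf UMIs in PBS epithelial-like cells against 636 expected. Of 119 member, class and library values with a UMI, 51 had a lower bound above that estimate, and 53 with Apoe, which keratinocytes and fibroblasts also express, left out of the macrophage list. Areg in fibroblast-like cells stood on either side of it depending on the list, with 560 UMIs against 684 expected in the PBS and 309 UMIs against 169 expected in the DTX library, but only 177 and 66.2 expected without Apoe, below the counts of both libraries. Epgn in macrophage-like cells was below the estimate, with 29 UMIs against 37.9 expected in the PBS and 17 UMIs against 73.5 expected in the DTX library. Lists of a few genes give only a rough estimate, as values far under it show.

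**Figure D5:**
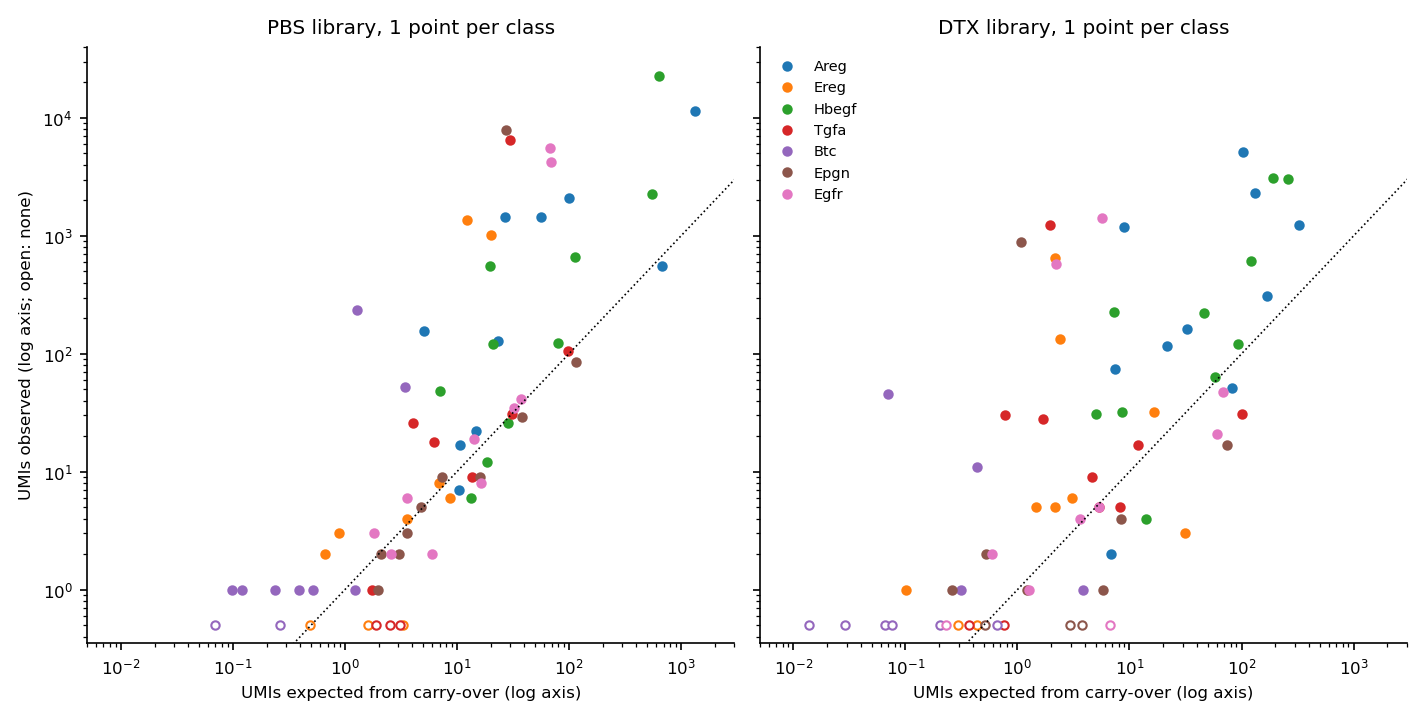
Observed UMIs of each member (vertical log axis) against the UMIs expected from carried-over RNA (horizontal log axis), by class and library, where the dotted line marks equality and open symbols no UMI. Tgfa in endothelial-like cells of the DTX library lies far above the line, at 30 UMIs against 0.770 expected, and Epgn in macrophage-like cells of that library below it, at 17 UMIs against 73.5 expected.

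Around the receptor, 42 genes of the pathway were read from 6 lists: the other ErbB receptors, other EGF family ligands, ligand shedding, adaptors, inhibitors and ERK-responsive genes. Few lay past 2-fold in any class. In epithelial-like cells 35 passed the UMI limit and 1 was past it, Spry1, an inhibitor of receptor tyrosine kinase signalling, at -1.30 (-2.24 to -0.50), from 8.27 and 3.35 CPM, and at -0.45 without doublet removal. Erbb2 and Erbb3, the partners of EGFR in keratinocytes, stood at 22.3 and 31.4 CPM and at 77.5 and 69.3 CPM, and no Erbb4 UMI was seen in epithelial-like cells, where the same limit is 0.105 and 0.773 CPM, nor in fibroblast- or macrophage-like cells. The median of the 35 was 0.087, beside 0.08 over all genes, of which 3.89% were past 2-fold higher and 3.48% lower.

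In fibroblast-like cells 1 of 35 tested pathway genes was past 2-fold. It was Rhbdf2, iRhom2, which escorts ADAM17 to the cell surface, at 3.97 and 10.2 CPM and a log2 ratio of 1.36 (0.97 to 1.74). Errfi1, a feedback inhibitor of EGFR, stood at 1694 and 1409 CPM. In macrophage-like cells 1 of 28 was higher, Spry2, a further Sprouty inhibitor, at 3.65 and 9.13 CPM and 1.32 (0.78 to 1.92), and 1 was lower, Timp3, an inhibitor of ADAM17, at 3.29 and 1.51 CPM and -1.12 (-1.84 to -0.38), or -0.77 with 1 CPM added to both libraries. Nrg1, a ligand of the ErbB3 and ErbB4 receptors, stood at 163 and 191 CPM in the same cells. The medians were 0.10 in fibroblast-like and 0.22 in macrophage-like cells, beside 0.13 and 0.07 over all genes. Of all genes tested, 3.82% were past 2-fold higher and 2.38% lower in fibroblast-like cells, and 2.67% and 4.56% in macrophage-like cells.

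The other 5 classes had 115 tested pairs of a pathway gene and a class, 4 of them past 2-fold. These were Dusp6 and Egr1, both ERK-responsive, lower in endothelial-like cells, at -1.16 for Dusp6 and, right at the limit, 372 and 186 CPM of Egr1 in the PBS and DTX libraries, and Plaur and Nrg1 higher in neutrophil-like cells, at 1.34 and 3.52. Nrg1 rested on 1 PBS and 69 DTX UMIs. Of all genes tested in these 5 classes, between 1.22% (dendritic-like) and 6.11% (neutrophil-like) were past 2-fold higher. Between 1.34% (NK or T-like) and 4.76% (neutrophil-like) were lower.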

How the data were processed

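The authors deposited raw counts (UMIs of each gene in each cell) made with Cell Ranger (6.1.1 per the labels; mm10) from 10x 3′ v3 libraries of live sorted cells, 1 per group, each pooling 3 mice. The file totals were 105511870 UMIs in 12058 cells (PBS) and 81858751 in 11031 (DTX).

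A cell passed with 500 or more detected genes and a mitochondrial share of up to 6% (8326 and 7188 cells). Scrublet (scanpy 1.11.5) marked 382 doublets in the PBS library and 0 in the DTX library, where it had not worked and the top 8% of its scores (575 cells) were removed instead. The methods' upper limit of 2000 genes was not applied, since 55.9% and 52.2% of cells exceed it, and is an alternative. Cells were clustered in Seurat 5.3.0 (R 4.3.3; resolution 0.2, subsets 0.2 to 0.5) without the members and pathway genes, and named from marker lists when at least 3 markers were raised. The naming rule for subclusters was amended after the clusters were seen.

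UMIs were summed per class and library and given as CPM with exact Poisson intervals, ratios with exact conditional binomial intervals and shares of cells with Clopper-Pearson intervals (scipy 1.17.1), all covering counting error only. A gene was past 2-fold with a ratio of at least 2 either way, at least 50 UMIs in both libraries together and a class of at least 50 cells in each. Shares were thinned to 2000 UMIs per cell, and cells with fewer UMIs were left out of them. Carry-over is each list's UMIs in a class times the member's UMIs per list UMI in the source class. The estimators were tested on simulated counts.

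Named were the 7 members, the pathway genes past 2-fold, with a few others added after their values were seen, and for each member the 3 genes most alike by Pearson r of log2(CPM + 1), among genes with at least 200 UMIs. Members and lists were chosen with earlier results of these data known. Coordinates are GENCODE vM21 (GRCm38).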

Additional observations from a re-analysis of the deposited data

Results flagged for a closer look

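Areg was the only member past 2-fold in opposite directions in 2 classes. Its log2 ratio of DTX over PBS was -1.37 in neutrophil-like cells, from 22 PBS and 51 DTX UMIs, and 2.28 in pericyte-like cells, from 17 and 162 UMIs. Against the estimate of carried-over RNA the neutrophil-like counts were 22 UMIs against 14.8 expected in the PBS library, where the estimate lay inside the interval of the count, and 51 UMIs against 81.5 expected in the DTX library. With 1 library per group the difference was not tested. The DTX pericyte-like value lay to 94.4% in 10 cells, of which the highest held 46 UMIs, and the median depth of neutrophil-like cells was 1224 UMIs in the PBS and 1914 in the DTX library.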

How the results depend on the processing

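No paired analysis was possible because each group has 1 library, and for the same reason no replicate could be left out. The count of members past 2-fold (6 over all classes, 2 of them in fibroblast-like and 2 in macrophage-like cells, 0 in epithelial-like cells) stayed within 1.5 times under 9 of the 11 alternatives, at 4 to 9. Under the upper limit of 2000 genes per cell it was 1 of 5 tested pairs in 3 classes (1 in fibroblast-like, 0 in macrophage-like cells). When 200 UMIs were required it was 1 of 18 (1 and 0 in those classes). Without the 10 cells with the most UMIs of the member it was 0 in macrophage-like and 2 in epithelial-like cells, where Ereg stood at -1.40 and Epgn at -1.09. The 10 cells were taken from each library whatever its number of cells, so they weigh more on the library with fewer cells of the class. Of the values past 2-fold at the main setting, 3 turned in sign. Under the 2000-gene limit Epgn in fibroblast-like cells stood at 2.58 and Nrg1 in neutrophil-like cells at -0.86. Without its top 10 cells Areg in neutrophil-like cells stood at 0.66. All 3 then rested on fewer than 50 UMIs. Pathway genes past 2-fold numbered 8 over all classes, 1 each in epithelial-like and fibroblast-like and 2 in macrophage-like cells. They became 15, 2 and 3 in the first 3 of these with at least 20 UMIs, 5 over all classes and 1 in macrophage-like cells when 200 UMIs were required, 1 in macrophage-like cells with 1 CPM added, 6 in fibroblast-like and 1 in macrophage-like cells under the 2000-gene limit, and 2 in fibroblast-like cells without doublet removal. Leaving out clusters led by genes of another class, an alternative chosen after seeing the data, gave 2 in epithelial-like cells and left the members' counts as they were. The share of all genes past 2-fold was found only at the main setting. No count under an alternative can therefore be set against such a share. The leading class of the DTX library was kept by 1 of 7 members under the 2000-gene limit, where fewer than 50 epithelial-like cells remained, and by 6 or 7 otherwise (the exception was Ereg, led by epithelial-like cells as a mean over cells). The leading keratinocyte state was kept by 6 or 7 of 7. Shares of PBS epithelial-like cells with a UMI, thinned to 1000 UMIs and unthinned, were 23.9% and 65.0% for Areg, 3.14% and 12.7% for Ereg, 42.3% and 90.8% for Hbegf, 19.6% and 78.0% for Tgfa, 1.16% and 7.25% for Btc, 17.0% and 48.1% for Epgn, and 12.3% and 70.7% for Egfr. Of the other values for single genes and classes, 303 kept their side of the 2-fold limit and 6 passed it. The remaining 21 were past 2-fold at the main setting and then fell inside the limit or below the UMI minimum. The count does not separate these. The causes were not tested.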

Other observations

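Over 17 groups of a class and a library with at least 50 cells, the genes most like each member, among 12142 genes, were keratinocyte genes for several of them. Epgn was most like Sprr2h, an epidermal barrier gene (r = 0.99), Dsg1a, a desmosomal cadherin (0.99), and Cnksr1 (0.99). Btc was most like Card14, a keratinocyte signalling scaffold (0.95), 2310030G06Rik (0.95) and Atp6v0a4 (0.94). Tgfa was most like Arhgef5 (0.94), Mgst2 (0.92) and Nebl (0.91), and Hbegf most like Dstn (0.91), Rab5a (0.91) and Sypl (0.91). Areg, which epithelial-like and immune classes both held, was most like Cbarp (0.91), Pycard, the inflammasome adaptor (0.91), and AC149090.1 (0.90). Ereg was most like Fgfr2, a receptor of keratinocytes and fibroblasts (0.92), Efs (0.86) and Kctd11 (0.85), and Egfr most like Irx2 (0.98), Vgll3 (0.98) and Il1rl2 (0.95). Among the members themselves r was 0.87 for Btc and Epgn, 0.80 for Ereg and Egfr, 0.72 for Ereg and Btc and 0.71 for Hbegf and Tgfa, and Areg had r = -0.37 with Hbegf and -0.28 with Ereg. The groups share 2 libraries and their classes, and these values are descriptions without a test.

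The filters on cells took more of some members than of others. Of 15166 Areg UMIs in the DTX file 10604 lay in kept cells, of 13740 Hbegf UMIs 7453, and of 3367 Tgfa UMIs 1365. In the PBS file the counts were 22424 and 17431 for Areg, 35017 and 26487 for Hbegf, and 9771 and 6740 for Tgfa. Of the UMIs of all genes, 81235634 of 105511870 were kept in the PBS file and 54872675 of 81858751 in the DTX file. Cells over the limit of 6% mitochondrial UMIs numbered 2620 and 2992 in the PBS and DTX libraries.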
